A study of Mus musculus with 2 samples.

Results

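In single cells of mouse fracture callus, the tissue of cartilage and new bone that bridges a break, the transcripts of 7 carbonic anhydrase genes were followed: Car1, Car2, Car3, Car8, Car9, Car12 and Car13. The 7 genes were matched by symbol among the 32285 genes of each matrix, which held 16 genes named as carbonic anhydrases in all. They were chosen from the levels that these libraries showed in osteoclasts, erythroid cells, chondrocyte stages and other classes, so the levels below are a description and no test was run on them. The samples were femoral calluses of 12-week-old male wild-type C57BL/6J mice, harvested at 10 days (n = 5) and 20 days (n = 5) after fracture. The labels gave neither library, MGJ or MGJ2, a day, and the barcodes do not separate mice. The libraries are therefore described side by side, and days were not compared. There is 1 library of each name, so no replicate check exists.

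Carbonic anhydrases are zinc enzymes that interconvert carbon dioxide and water with bicarbonate and a proton. CAR2 is a fast cytosolic form, known in red cells, where it serves carbon dioxide transport, and in osteoclasts, where it supplies the protons that dissolve bone mineral. CAR1 and CAR13 are cytosolic forms, CAR1 being a classic red-cell protein. CAR3 is a slow cytosolic form known from muscle and fat, and CAR8 lacks the catalytic zinc site and binds an inositol trisphosphate receptor. CAR9 and CAR12 span the plasma membrane with the active site outside the cell, and Car9 is a well-known target of hypoxia-inducible factor.

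Car13, Car1, Car3 and Car2 are neighbours on chromosome 3. In GENCODE M21 on GRCm38 they lay at chr3:14641727-14663002, chr3:14766216-14808368, chr3:14863512-14872523 and chr3:14886273-14900770, and were the only 4 protein-coding genes in that span of 259044 bases. Car1 was on the minus strand and the other 3 on the plus strand. Car8 was at chr4:8143362-8239041 on the minus strand, Car9 at chr4:43506966-43513729 on the plus strand and Car12 at chr9:66713686-66766845 on the plus strand. A processed pseudogene overlapped Car1 on its own strand, and another overlapped Car8.

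Promoter windows from RefSeq (GRCm38.p6, 250 bases before to 50 bases after the start) were at hand for 2 of the 7 genes, Car9 and Car12. Stretches of the Car9 window are shown because Car9 is the member best known for hypoxia control and was read mostly in chondrocyte-like cells in library MGJ (719 of 855 UMIs). Capitals mark TGAGTCA, a site bound by AP-1 factors, in the bases upstream of the GENCODE start (chr4:43506776-43506965, plus strand), and CACGT, the minus-strand form of the hypoxia response core ACGTG, in the 30 bases up to the RefSeq start (chr4:43506996-43507025, plus strand).
Car9 upstream: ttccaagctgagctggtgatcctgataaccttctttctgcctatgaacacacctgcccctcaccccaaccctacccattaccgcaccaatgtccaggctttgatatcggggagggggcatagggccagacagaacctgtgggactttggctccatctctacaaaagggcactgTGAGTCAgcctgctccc
Car9 start region: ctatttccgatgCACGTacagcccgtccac
ACGTG was found on either strand in 19.6% of the 32851 RefSeq windows of 300 bases and TGAGTCA in 5.20%. Neither was found in the Car12 window. The 2 motifs share no bases in the Car9 window, and a match is a description of the letters only.

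Library MGJ held 14295 barcodes and library MGJ2 held 8009, with 135304426 and 61130834 UMIs (unique molecular identifiers, 1 per captured RNA molecule) and medians of 5026 and 4952 UMIs per barcode. After removal of barcodes with under 200 genes or over 20% mitochondrial UMIs, and of 223 doublet calls in MGJ2, 13460 and 7583 cells were kept. Scrublet called 0 doublets in MGJ, so no cell was removed as a doublet there and any doublets remained. 19 barcode sequences occurred in both libraries, 13 of them among kept cells. Classes end in "-like" because they were named from marker genes, and no carbonic anhydrase was used to cluster the cells. Levels are CPM, the UMIs of a gene for every 1000000 UMIs of a class (or of a cell, where said), with exact 95% Poisson intervals that cover counting error only. Mature neutrophil-like cells were the largest class of both libraries, with 4628 cells in MGJ and 2018 in MGJ2. Library MGJ was also rich in chondrocyte-like (3332 cells) and macrophage-like cells (1349), and MGJ2 in monocyte-like (1542), T-like (813) and NK-like cells (686). Every marker of the chondrocyte, osteoclast, NK and erythroid lists was higher in its class than in the remaining cells of either library.

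**Figure D1:**
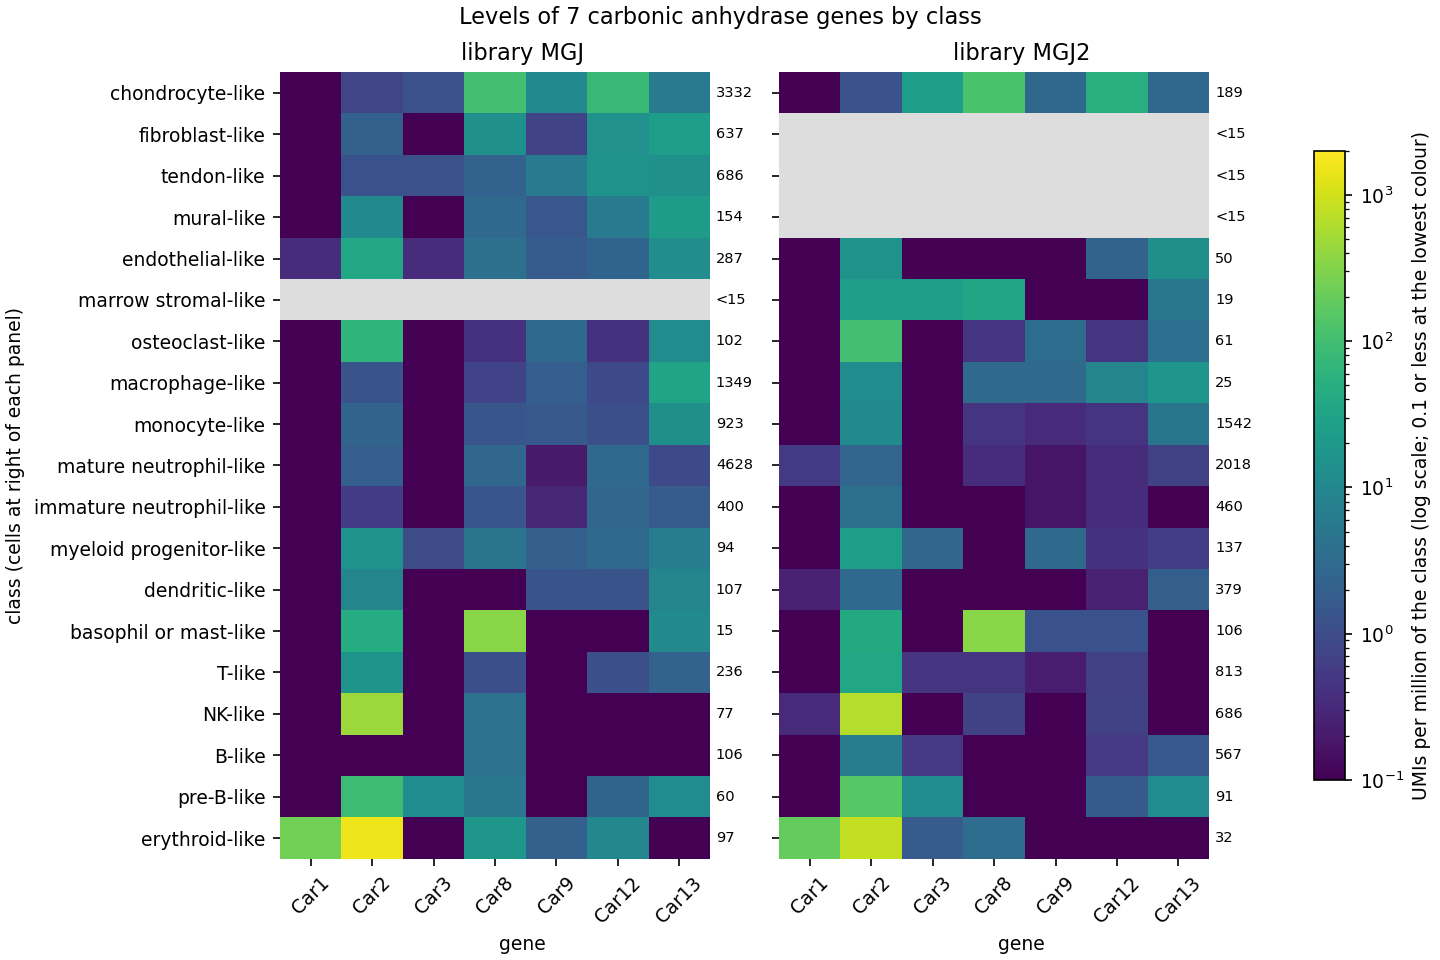
Levels of the 7 genes (columns) in each class (rows) of library MGJ (left) and MGJ2 (right), in CPM of the class on a log colour scale, with the number of cells at the right of each panel; grey rows have fewer than 15 cells. Car1 is seen in erythroid-like cells, Car2 in erythroid-like, NK-like, pre-B-like and osteoclast-like cells, and Car8 and Car12 in chondrocyte-like cells, with Car8 also in basophil or mast-like cells.

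Car2 was read in several classes of different lineages. In library MGJ it stood at 1531 CPM (1422 to 1645; 740 UMIs) in the 97 erythroid-like cells, at 457 (377 to 548; 114 UMIs) in the 77 NK-like cells and at 65.1 (55.3 to 76.1; 156 UMIs) in the 102 osteoclast-like cells. Pre-B-like cells, at 88.8 (62.2 to 123), overlapped osteoclast-like cells in their interval. At the other end, Car2 was at 0.795 (0.594 to 1.04) in chondrocyte-like cells, 1.29 in macrophage-like cells and 1.91 in mature neutrophil-like cells.

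In library MGJ2 the order was similar among the classes of at least 50 cells. NK-like cells held 657 CPM (628 to 686; 1949 UMIs), pre-B-like cells 155 (133 to 179) and osteoclast-like cells 103 (90.2 to 118; 222 UMIs), and no interval in this row overlapped the next. The 32 erythroid-like cells of MGJ2, too few for the order, stood at 804 (732 to 880; 466 UMIs), of which 171 UMIs came from 1 cell. NK-like cells, in a cluster led by Gzma, Eomes and Il2rb, held 56.5% of all Car2 UMIs of MGJ2 while holding 5.11% of all UMIs. Erythroid-like cells held 53.7% of the Car2 UMIs of MGJ with 0.361% of all UMIs.

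**Figure D2:**
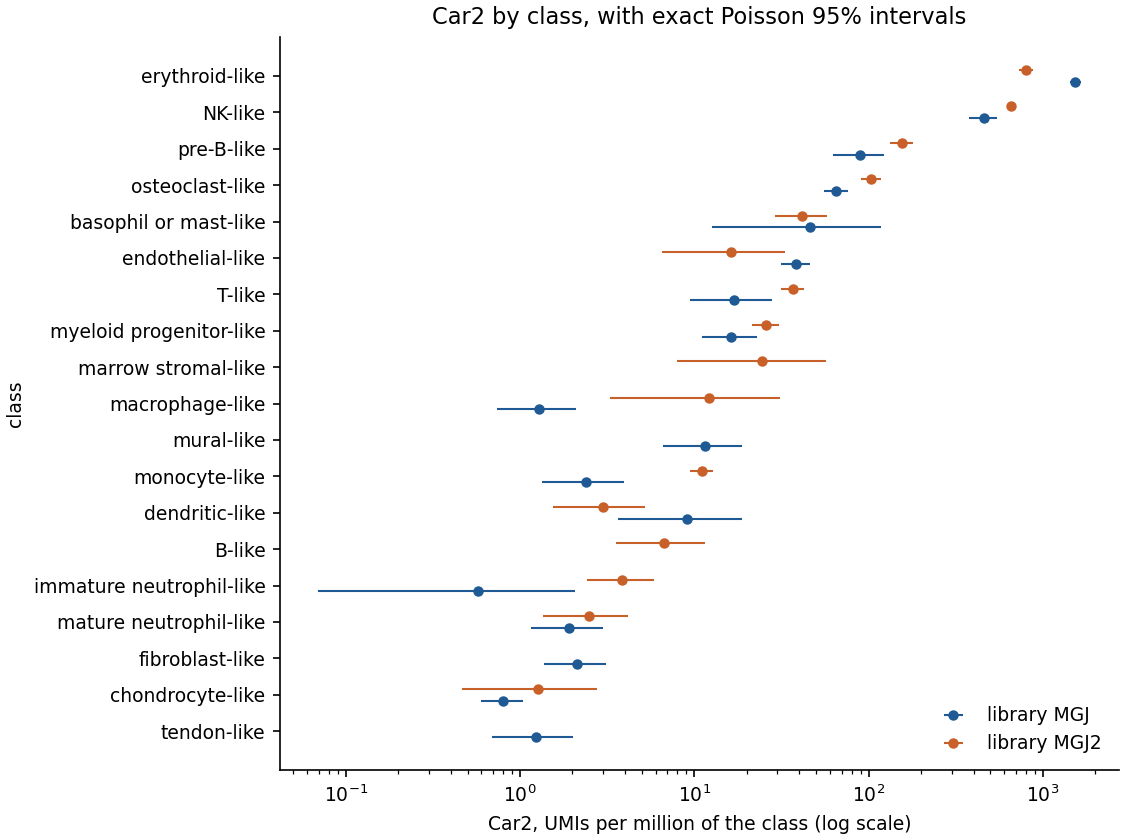
Car2 in CPM of the class (log axis) for classes of at least 15 cells with a Car2 UMI, by library; points are levels and bars are exact Poisson 95% intervals. Erythroid-like and NK-like cells lie above 400 in both libraries, and chondrocyte-like cells lie under 2.

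The NK-like signal was spread over cells. A Car2 UMI was found in 542 of the 686 NK-like cells of MGJ2 (79.0%) and in 47 of the 77 of MGJ (61.0%), and the highest single cell held 15 and 8 UMIs. After each cell was thinned at random to 2000 UMIs, the share was 65.2% (61.4 to 68.9; 647 cells) in MGJ2 and 58.1% (44.8 to 70.5; 62 cells) in MGJ, with exact Clopper-Pearson 95% intervals. Mature neutrophil-like cells, which are not known for Car2, had thinned shares of 0.423% and 0.258%, and B-like cells of MGJ2 1.5%. B-like cells of MGJ held 0 Car2 UMIs, which allows up to 12.9 CPM. The median depths were 3843.5 UMIs in NK-like and 2356 in mature neutrophil-like cells of MGJ2, and 2995 and 1844.5 in MGJ. T-like cells stood lower, at 36.7 CPM in MGJ2 and 16.9 in MGJ.

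Relative to all other cells of the library, Car2 in NK-like cells was 24.1 times as high in MGJ2 (22.5 to 25.8) and 48.2 times in MGJ (39.5 to 58.4). Car2 was the only 1 of the 7 genes at least 2-fold higher in NK-like cells in either library, beside a background of 16.3% of genes at least 2-fold higher in MGJ2 and 17.7% in MGJ. The other 6 members had 0 to 2 UMIs each there. Car3, Car9 and Car13 had 0 UMIs in NK-like cells of both libraries, which allows up to 1.01 CPM in MGJ2 and 12 in MGJ.

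In osteoclast-like cells Car2 was 7.0 times as high as elsewhere in MGJ (5.88 to 8.27) and 1.79 times in MGJ2 (1.56 to 2.05), where the other cells included the NK-like cells. Counting each cell equally, whatever its depth, the ratio was 4.19 in MGJ. Car2 was the 1 member at least 2-fold higher in MGJ, beside 17.4% of genes. In MGJ2 it was Car9, from 7 UMIs, at 4.67 times (1.76 to 10.6), beside 14.1% of genes. Osteoclast-like cells formed a larger cluster (66 and 49 cells) and a smaller one that also held cell-cycle genes such as Ube2c and Birc5 (36 and 12 cells). Car2 was at 85.7 CPM (70.6 to 103) in the larger and 39.9 (28.9 to 53.7) in the cycling cluster of MGJ, and at 126 (109 to 144) and 23.4 (11.7 to 41.9) in MGJ2. In both libraries the cycling cluster was the lower.

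Osteoclast-like cells are deep, with medians of 22454 and 34423 UMIs, and a Car2 UMI was found in 47.1% and 59.0% of them. Thinned to 2000 UMIs, the shares were 7.29% (2.98 to 14.4) and 18.3% (9.52 to 30.4), above those of mature neutrophil-like cells. Of the 6 genes on the acid secretion list, 6 were at least 2-fold higher in osteoclast-like cells of MGJ and 5 in MGJ2. The shares over all genes were 17.4% and 14.1%. The median ratios of the list were 6.08 and 4.66, beside 0.862 and 0.723 over all genes. Atp6v0d2, a proton pump subunit, was at 556 and 626 CPM, and Tcirg1, the osteoclast form of another pump subunit, at 379 and 496. Ostm1, the partner of the chloride channel CLCN7, was the gene under 2-fold in MGJ2 at 1.42 (1.11 to 1.80). The 6 genes were also at least 2-fold higher in macrophage-like cells of MGJ (median ratio 4.72), beside 11.9% of all genes. Car2 was at 1.29 CPM in those cells. Slc4a2, the chloride-bicarbonate exchanger that removes the bicarbonate made beside each proton, was 5.75 and 6.50 times the level of other cells.

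Within other classes Car2 was unevenly spread. In the monocyte-like cells of MGJ2, 155 of 170 Car2 UMIs lay in 72 cells of a cluster led by Dmkn, Pclaf and Top2a, at 87.1 CPM (73.9 to 102), while the 1444 cells of the main monocyte-like cluster were at 1.13 (0.631 to 1.86). Those UMIs came from 16 of the 72 cells, with 33 in the highest. The 53 cells of the same cluster in MGJ were at 6.19 (2.01 to 14.4). In endothelial-like cells of MGJ, 55 of 109 Car2 UMIs came from 1 cell, and without it the level fell from 38.2 to 19.3 CPM.

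Car1 was read mostly in the erythroid-like cluster, which held 117 of 121 Car1 UMIs in MGJ and 110 of 117 in MGJ2. The levels were 242 CPM (200 to 290) and 190 (156 to 229). These came from few cells. Car1 was found in 7 of 97 erythroid-like cells of MGJ, with 73 UMIs in 1 of them, and in 5 of 32 in MGJ2, with 77 UMIs in 1. Without those cells the levels were 99.0 and 58.9. Car2, by contrast, was found in 78 of 97 and 21 of 32 cells.

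The erythroid-like cluster was not uniform. Cells were split at 10000 CPM of 4 hemoglobin genes, a limit chosen after the values were seen. In MGJ, 85 cells were rich in hemoglobin, with Alas2, the first enzyme of heme synthesis in red cells, at 1055 CPM. The other 12 cells, and 29 of the 32 cells of MGJ2, were poor in it. Alas2 was at 0 UMIs in the 12 hemoglobin-poor cells of MGJ and at 5.36 CPM in the 29 of MGJ2, where Kit and Gata2, genes of blood progenitors, were at 107 and 85.7. The name erythroid-like thus rests on the hemoglobin-rich cells, and the hemoglobin-poor cells go against it in their defining markers.

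The hemoglobin-poor and hemoglobin-rich cells differed in both genes. In MGJ, Car1 was at 870 CPM (711 to 1054; 104 UMIs in 4 cells) in the hemoglobin-poor and 35.7 (19.0 to 61.1; 13 UMIs in 3 cells) in the hemoglobin-rich cells. Car2 ran the other way, at 334 (239 to 455) and 1924 (1784 to 2072), with a UMI in 5 of 12 and 73 of 85 cells. In MGJ2, Car1 was at 175 CPM (142 to 213; 98 UMIs in 4 cells) in the 29 hemoglobin-poor cells and 612 (316 to 1069; 12 UMIs in 1 cell) in the 3 hemoglobin-rich cells. Car2 there was at 710.5 (642 to 784; 398 UMIs) and 3467 (2692 to 4395; 68 UMIs). Both genes of MGJ2 were thus higher in the 3 hemoglobin-rich cells, and the order of Car1 was opposite to that of MGJ. All 5 Car1-positive cells of MGJ2 and 6 of the 7 of MGJ also held a Car2 UMI.

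**Figure D3:**
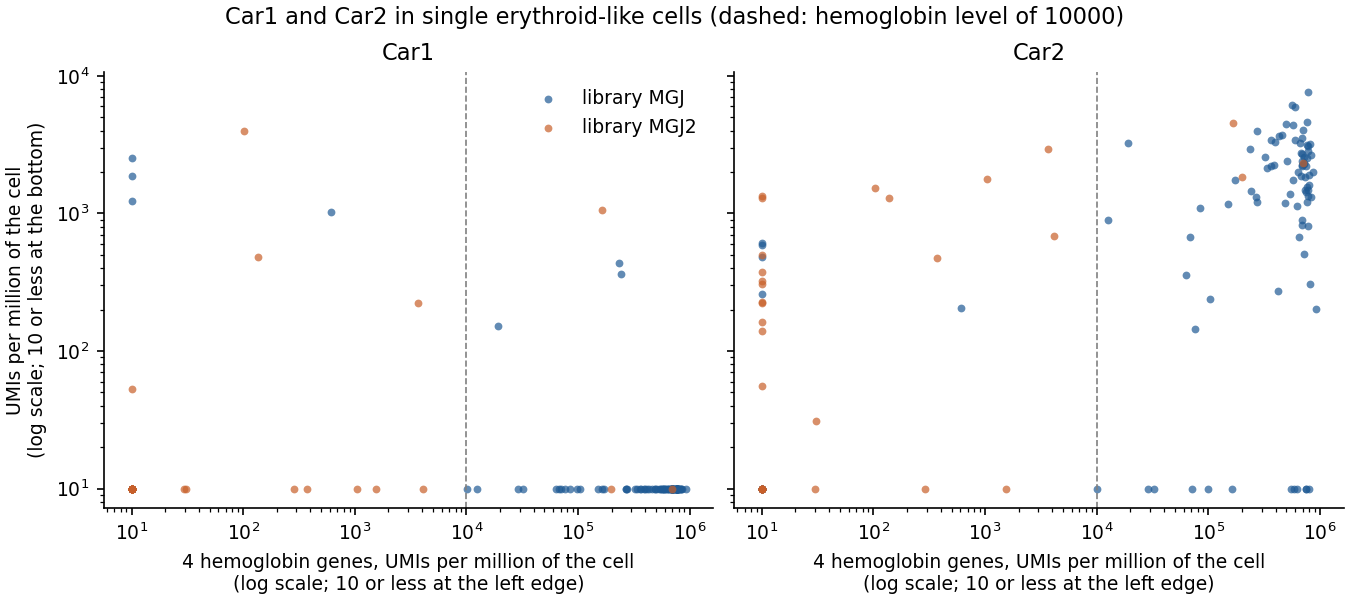
Car1 (left) and Car2 (right) in single erythroid-like cells, in CPM of the cell, against the summed level of 4 hemoglobin genes (both axes log; values of 10 or less sit on the edges), by library. Car2 is found in 73 of the 85 hemoglobin-rich cells of MGJ, right of the dashed line at 10000, and Car1 in 3 of them.

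Against all other cells, Car2 in erythroid-like cells was 319 times as high in MGJ (287 to 356) and 15.5 times in MGJ2 (14 to 17.1), where NK-like cells were among the others. Car1 was 8070 times as high in MGJ (3069 to 30111) and 1558 times in MGJ2 (731 to 3965), with 4 and 7 UMIs in the other cells. The Car1 ratio depended on the filters and clusters, for a cause that was not tested: its value in MGJ was 44.4 with each library clustered alone, 47.6 at 10% mitochondrial UMIs or less and 89.1 with at least 500 genes. Car1 and Car2 were the 2 of the 7 members at least 2-fold higher in either library, where 11.3% of genes were at least 2-fold higher in MGJ and 19.9% in MGJ2. The bicarbonate carrier of the red-cell membrane, Slc4a1 (band 3), was at 1504 CPM in erythroid-like cells of MGJ and 186 in MGJ2, and the water channel Aqp1 at 225 and 81.1. Of the 108 Slc4a1 UMIs of MGJ2, 106 came from the 3 hemoglobin-rich cells (5404 CPM), and the other 29 cells were at 3.57. Of the 6 carriers on that list, 2 in MGJ and 3 in MGJ2 were at least 2-fold higher.

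In chondrocyte-like cells the leading members were Car8 and Car12. Car8 was at 105 CPM (103 to 108; 6890 UMIs) in the 3332 cells of MGJ and 115 (106 to 125; 547 UMIs) in the 189 of MGJ2. Car12 was at 77.9 (75.8 to 80.1; 5096 UMIs) and 50.2 (44.0 to 57.0; 238 UMIs). Chondrocyte-like cells held 95.6% of the Car8 UMIs and 91.9% of the Car12 UMIs of MGJ, while they held 48.9% of all UMIs, and 63.3% and 89.5% in MGJ2 with 8.17% of all UMIs.

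Relative to all other cells, Car8 was 22.7 times as high in chondrocyte-like cells of MGJ (20.3 to 25.5) and 19.4 times in MGJ2 (16.8 to 22.3). Car12 was 11.8 times (10.7 to 13) and 95.5 times as high (64.4 to 147). In MGJ the other cells included tendon-like and fibroblast-like cells with Car12 at 15.5 and 14.9 CPM, and their intervals overlapped. MGJ2 held 5 tendon-like and 0 fibroblast-like cells. At least 2-fold higher were 3 of 7 members in MGJ (Car8, Car9, Car12) and 4 in MGJ2 (those and Car3), beside 16.5% and 22.8% of all genes. Thinned to 2000 UMIs, 14.1% (12.9 to 15.4) of the chondrocyte-like cells of MGJ held a Car8 UMI and 11.7% (10.6 to 12.9) a Car12 UMI, against 0.464% and 0.413% of mature neutrophil-like cells.

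Chondrocytes pass from Col2a1-rich immature cells to hypertrophic cells marked by Col10a1, the collagen of calcifying cartilage. Chondrocyte-like cells were therefore divided by their own Col10a1 level into low (under 1000 CPM of the cell; 2341 cells in MGJ, 94 in MGJ2), moderate (430 and 36) and high (at least 10000; 561 and 59). The stages are ranges of a continuous level. Col2a1 was at 49200, 63550 and 48493 CPM in low, moderate and high cells of MGJ, and at 43635, 52824 and 31730 in MGJ2. The low cells were thus not the richest in Col2a1, and low Col10a1 is not by itself a sign of immature cartilage here. Within 1.5-fold of the lower limit lay 158 and 15 cells, and of the upper limit 177 and 9.

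Car8 was lower from each of these stages to the next. In MGJ it was at 126 CPM (123 to 130) in low, 93.7 (87.6 to 100) in moderate and 33.0 (29.8 to 36.5) in high cells, and in MGJ2 at 203 (184 to 224), 128 (105 to 154) and 10.9 (6.63 to 16.8). The ratio of high over low was 0.261 (0.235 to 0.290) and 0.0533 (0.0323 to 0.0835). In finer steps of MGJ, Car8 was at 128 in cells under 300 CPM of Col10a1 and at 8.01 in those over 30000. The finer steps of MGJ2 were not in order, with 310 in the 13 cells between 1000 and 3000. Cells of all stages were about equally deep in MGJ, with medians of 19137, 22829 and 20987 UMIs. In MGJ2 the high cells were the deepest, with medians of 21939.5, 23105.5 and 28763.

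Car12 followed another course. In MGJ it was at 66.5 CPM (64.1 to 68.9) in low, 133 (126 to 141) in moderate and 77.8 (72.8 to 83.1) in high cells. Moderate over low was 2.0 (1.87 to 2.14) and high over moderate 0.585 (0.536 to 0.638). In finer steps it was at 56.4 under 300, between 126 and 142 in the 3 steps from 300 to 10000, and at 40.5 over 30000. In MGJ2, low and moderate cells were at 68.8 (57.9 to 81.1) and 72.8 (55.7 to 93.5), with overlapping intervals, and high cells at 19.0 (13.2 to 26.4), of whose 35 UMIs 21 came from 1 cell. In the finer steps of MGJ2, Car12 was highest, at 232, in the 17 cells between 300 and 1000. The Chil1-led cluster, described below, held Car12 at 27.1 CPM in MGJ. It made up 843 of the low cells of MGJ and 52 of those of MGJ2. Without it, cells under 300 were at 68.3 in MGJ and 43.1 (30.6 to 58.9) in MGJ2, against 56.4 and 24.6 with it. Cells from 300 to 1000 were at 158 and 236 without it. The level of Car12 in low cells thus depended in part on that cluster.

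High over low Col10a1 was thus 1.17 (1.08 to 1.26) for Car12 in MGJ and 0.276 (0.185 to 0.402) in MGJ2. The MGJ ratio changed sides with the limits and clusters. It was 0.890 with limits of 500 and 20000, 0.964 without the Chil1-led cluster described below and 0.992 with each library clustered alone, but 2.19 at 10% mitochondrial UMIs or less and 2.21 with at least 500 genes. Counted in this comparison were the 6 members of MGJ and the 3 of MGJ2 with at least 20 UMIs. Of these, 0 were at least 2-fold higher in high over low cells, beside 8.28% and 6.55% of all genes. Among so few members, a count of 0 is near those shares. At least 2-fold lower were 3 of 6 counted in MGJ (Car3, Car8, Car9) and 3 of 3 in MGJ2 (Car3, Car8, Car12), beside 13.3% and 11.5% of all genes. The count for Car3 rests on the Chil1-led cluster, which held 843 of the low and 10 of the high cells of MGJ and 52 and 1 of those of MGJ2. Without it, Car3 of MGJ had 3 UMIs in the 1296 cells under 300 and 1 in the 202 from 300 to 1000, against 4 in the 312 from 10000 to 30000 and 2 in the 239 over 30000. In MGJ2 it had 1 UMI, in a cell under 300. Car3 is too rare in the remaining cells to give a direction.

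**Figure D4:**
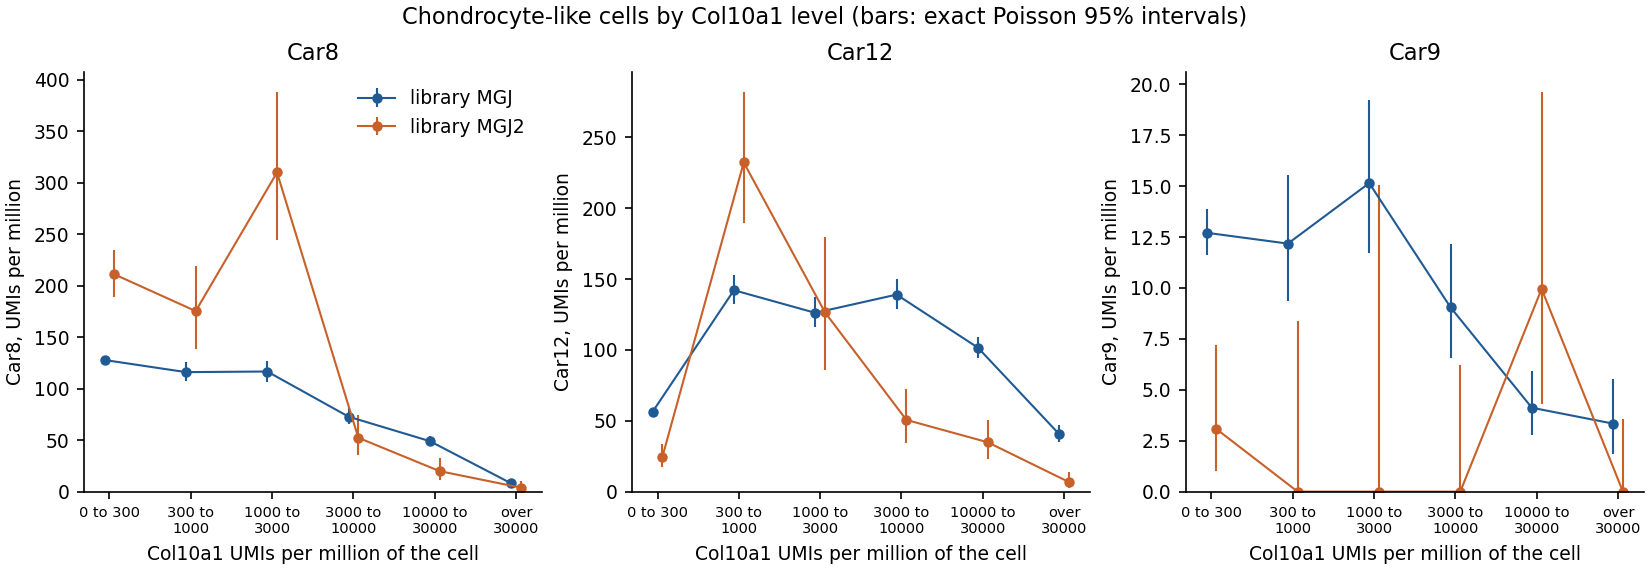
Car8, Car12 and Car9 in chondrocyte-like cells grouped by the Col10a1 level of the cell (6 steps, left to right), in CPM, by library; bars are exact Poisson 95% intervals. Car8 of MGJ lies between 116 and 128 up to 3000 and at 8.01 over 30000, while Car12 of MGJ is highest, at 126 to 142, between 300 and 10000.

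The chondrocyte-like clusters showed the same division. Car8 was highest in the cluster led by Ucma and Epyc, genes of immature cartilage, at 166 CPM (160 to 172) in MGJ and 307 (267 to 351) in MGJ2. Car12 was highest in the cluster led by Cdkn1c, Panx3 and Pth1r (the PTHrP receptor gene), at 140 (135 to 145) and 190 (164 to 219). In the Col10a1-led cluster, Car8 was at 13.2 and 16.5 and Car12 at 43.3 and 8.01. A cycling cluster led by Cdk1 (108 cells, MGJ) had Car8 at 89.8 and Car12 at 77.5.

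Car8 and Car12 were often read in the same cells. In MGJ, 50.6% of the 1523 cells with a Car8 UMI held a Car12 UMI, against 30.8% of the chondrocyte-like cells without Car8, and in MGJ2 46.6% of 58 against 9.16%. Cells with a Car8 UMI were deeper, with medians of 23287 against 16327 UMIs in MGJ and 34681 against 21633 in MGJ2, and the part of depth in these shares was not tested.

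**Figure D5:**
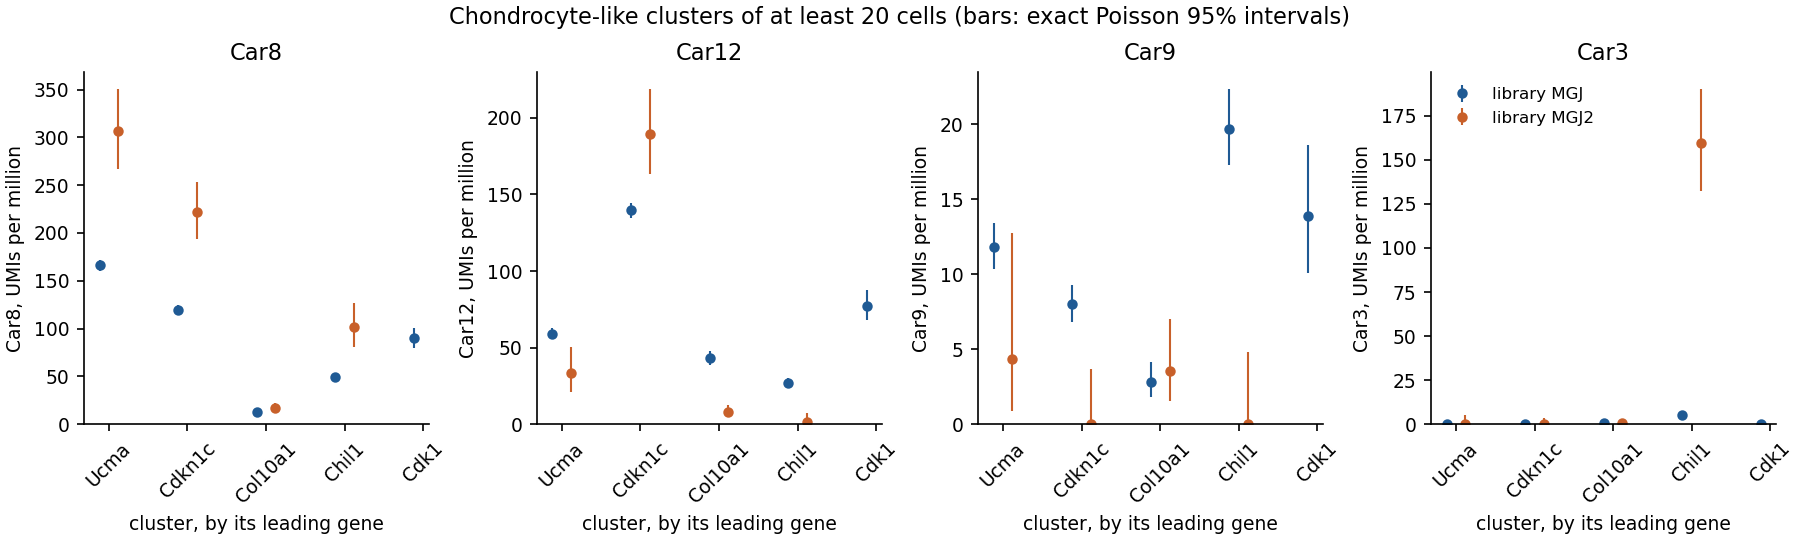
Car8, Car12, Car9 and Car3 in the chondrocyte-like clusters, named by a leading gene, in CPM of the cluster, by library; bars are exact Poisson 95% intervals. Car8 peaks in the Ucma-led, Car12 in the Cdkn1c-led and Car3 of MGJ2 in the Chil1-led cluster.

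Car9 was read at low levels. Chondrocyte-like cells held it at 11 CPM (10.2 to 11.8; 719 UMIs) in MGJ and 2.74 (1.46 to 4.69; 13 UMIs in 4 cells) in MGJ2. Relative to all other cells this was 5.53 times (4.60 to 6.70) and 4.43 times (2.14 to 8.64), but 1.84 times in MGJ with each library clustered alone. In MGJ, low and moderate cells overlapped in their intervals, at 12.6 (11.6 to 13.7) and 12 (9.83 to 14.4), and high cells were lower at 3.82 (2.77 to 5.12). In MGJ2, low cells were at 2.42 (0.786 to 5.65; 5 UMIs in 2 cells), moderate cells held 0 UMIs and high cells were at 4.34 (1.87 to 8.55; 8 UMIs in 2 cells), too few to give an order. Among the chondrocyte-like clusters of MGJ the Chil1-led cluster was the highest at 19.7 (17.3 to 22.4). Tendon-like cells of MGJ stood at 5.73 (4.47 to 7.24). The 60 cells of the Chil1-led cluster in MGJ2 held 0 Car9 UMIs, which allows up to 3.92 CPM. In MGJ2, osteoclast-like, myeloid progenitor-like and chondrocyte-like cells, at 3.26, 3.07 and 2.74, overlapped in their intervals.

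Other genes of the hypoxia response lay on either side of an equal level. Of the 12 on that list, 3 in MGJ and 5 in MGJ2 were at least 2-fold higher in chondrocyte-like cells than in all others, beside the 16.5% and 22.8% of all genes. Among them, Vegfa, the endothelial growth factor, was 2.15 and 2.98 times as high, Bnip3, a mitophagy gene, 3.41 and 18.4 times, and P4ha1, a collagen prolyl hydroxylase subunit, 2.84 and 7.14 times. From low to high Col10a1, 1 of 12 was at least 2-fold higher and 2 were lower in MGJ, beside 8.28% and 13.3% of all genes, with a median ratio of 0.922 beside 0.925 over all genes. In MGJ2, of 11 counted, 2 were higher (Vegfa at a ratio of 2.21 and Adm at 5.18) and 1 was lower (P4ha1 at 0.448), beside 6.55% and 11.5%, with a median of 0.768 beside 0.934. Adm (adrenomedullin) was at 4.26 CPM in low and 38.5 in high cells of MGJ, opposite in direction to Car9 of that library, and Ndrg1 was at 87.2 and 21.7.

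Car3 was rare and lay in few cells. In MGJ2, 123 of 165 Car3 UMIs were in chondrocyte-like cells, at 25.9 CPM (21.5 to 30.9), but in 11 of 189 cells, with 56 UMIs in 1. Of these, 122 lay in the Chil1-led cluster, at 159 (132 to 190) in MGJ2 and 5.19 (4.0 to 6.63) in MGJ. That cluster, led also by Hp, Lbp (acute-phase proteins) and Col1a1, the bone collagen, had 1 gene of another list and 0 chondrocyte markers among its 10 leading genes. At a finer resolution, 47 cells of MGJ2 and 340 of MGJ were named osteoblast-like, and they held Car3 at 274 (227 to 328; 120 UMIs in 8 cells) and 22.3 (16.8 to 28.9; 56 UMIs in 18 cells). The ratio of Car3 in chondrocyte-like cells to Car3 elsewhere was 1.69 in MGJ and 32.9 in MGJ2 in the main division, but 0.220 and 0.232 at the finer one. In pre-B-like cells Car3 was at 12.5 (7.02 to 20.7) in MGJ2 and at 12.3 from 5 UMIs in MGJ. A small marrow stromal-like cluster, led by Cxcl12 and Adipoq, also held Car3. Its 1 cell in MGJ had 23 of the 123 Car3 UMIs of that library. Its 19 cells in MGJ2 were at 24.5 (7.97 to 57.3), from 5 UMIs in 3 cells.

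Car8 had a second place outside cartilage. Basophil or mast-like cells, led by Prss34, Mcpt8 and Cpa3, held it at 346 CPM in both libraries, with intervals of 307 to 388 (290 UMIs, 106 cells) in MGJ2 and 233 to 494 (30 UMIs, 15 cells) in MGJ. In MGJ2 this was 34.5 times as high as elsewhere (29.8 to 39.8). A UMI was found in 69 of the 106 cells, and after thinning in 47.1% (37.2 to 57.2), against 0.0706% of mature neutrophil-like cells. Car8 was the only 1 of the 7 members at least 2-fold higher in this class, beside 9.46% of all genes.

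Car13 was low and broad. In MGJ it was at 32.7 CPM (29.6 to 36.0) in macrophage-like, 26.1 (23.3 to 29.2) in fibroblast-like and 23.2 (15.9 to 32.7) in mural-like cells, the last 2 overlapping, and at 6.10 (5.52 to 6.73) in chondrocyte-like cells. Macrophage-like cells were highest in 5 of 9 alternative settings, and fibroblast-like, monocyte-like or megakaryocyte-like cells in the others. Within macrophage-like cells the cluster led by Arg1, Pf4 and Mmp12 was at 40.8 (35.6 to 46.5) and the C1qa-led cluster at 26.4 (22.7 to 30.5). Macrophage-like cells of MGJ were 3.56 times as high as all others (3.17 to 3.99), and Car13 was the 1 member at least 2-fold higher there, beside 11.9% of all genes. Unlike Car8 and Car12, Car13 of MGJ differed little between the Col10a1 stages, at 6.21, 5.92 and 5.81 in low, moderate and high cells. High over low was 0.935 (0.705 to 1.23). Within the high cells Car13 was uneven, at 3.84 (2.53 to 5.58) from 10000 to 30000 and 8.90 (6.36 to 12.1) over 30000. Among classes of at least 50 cells of MGJ2 the highest level was 13.9 in endothelial-like cells, from 6 UMIs, and monocyte-like cells were at 4.63 (3.61 to 5.84).

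The other 9 genes of the family were not chosen as members. Over the kept cells of MGJ they held from 1 (Car14) to 441 UMIs (Car5b, a mitochondrial form), and in MGJ2 from 0 (Car4) to 166 (Car5b). Car4, a form anchored on the cell surface, was at 26.0 CPM in endothelial-like and 21.8 in fibroblast-like cells of MGJ. Its 422 UMIs in MGJ stood against 0 in MGJ2, which held 50 endothelial-like and 0 fibroblast-like cells. Car5b was highest in NK-like cells of MGJ2, at 24.9 from 74 UMIs.

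The genes whose levels were most like those of each member were sought over 30 class levels (17 classes of at least 50 cells in MGJ, 13 in MGJ2) among 11391 genes that were no marker. These classes share libraries and lineages, so r is a description. For Car12 they were Wnt5b (r = 0.975), Ngef (0.973) and Nrk (0.971). Car1 was nearest to Slc4a1 (0.999), Tspan33 (0.971) and Tmcc2 (0.971), which rests on the erythroid-like cells of MGJ, the class of at least 50 cells with over 5 CPM of Car1. Within that class all 727 Slc4a1 UMIs were in hemoglobin-rich cells and 104 of 117 Car1 UMIs in hemoglobin-poor cells. Car9 was nearest to Cryzl2 (0.880), Sbsn (0.837) and Isoc2b (0.821), Car8 to Ccdc62 (0.837), 4930471E19Rik (0.785) and Rom1 (0.780), and Car2 to Klhl25 (0.836), Clcn3 (0.787) and Pigq (0.782). Car13 was nearest to Lrp12 (0.819), Mmp14 (0.811) and Ecm1 (0.786), and Car3 to genes that included Tnfrsf19 (0.759) and Ttll1 (0.759).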

How the data were processed

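The authors deposited 2 filtered matrices of raw UMI counts per gene and barcode, written by Cell Ranger (version 4.0.0, per the file headers) against GRCm38 per the submitters' processing notes, from 10x Genomics 3′ libraries (version 3 chemistry). No normalization had been applied. Whether reads were counted with strand is not given in the sources used here. Members, marker lists and gene lists were chosen with earlier results of these data known.

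Cells were filtered as stated above, and doublets were called with Scrublet (scanpy 1.11.5) at 0.8% per 1000 barcodes. Both libraries were clustered together with Leiden (leidenalg 0.10.2, resolution 1) on 2000 variable genes and 30 principal components, without carbonic anhydrases. A cluster took the name of 1 of 26 marker lists if its mean log2(CPM + 10) was at least 1 above the mean over clusters and 3 markers were detected. A cluster stayed unnamed below these limits, or where at least 2 markers of other lists, and more than of its own, were among its 10 leading genes. The unnamed cells were 169 in MGJ and 394 in MGJ2. In each of the fibroblast-like, the Arg1-led macrophage-like, the Chil1-led and the Col10a1-led clusters, 1 leading gene was a marker of another list and 0 were its own.

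Levels are summed UMIs as CPM. Ratios carry exact conditional binomial 95% intervals and were counted over genes with at least 20 UMIs in the cells compared. A limit for 0 UMIs or cells is 3 counts. Named genes were the 7 members, the 3 most alike for each by Pearson's r of log2(CPM + 10) among genes of at least 100 UMIs per library, and examples from 4 lists (9, 6, 6 and 12 genes). Some genes are not reported here. The ratio step was tested on simulated data. Alternatives are given in the closing section. The depth per cell, a median of 5705.5 and 4930 UMIs after filtering, limits genes such as Car9 to few UMIs per cell.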

Additional observations from a re-analysis of the deposited data

Results flagged for a closer look

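Barcodes removed for few genes or for mitochondrial UMIs, and the doublet calls of MGJ2, entered none of the main values (doublet calls entered only the alternative that kept them), yet 4 members were read in them above the level that a count of 0 allows (2.08 CPM in the 835 removed barcodes of MGJ and 0.974 in the 426 of MGJ2). In MGJ, Car2 was at 28.5 CPM (20.4 to 38.6), Car12 at 27.1 (19.2 to 37.0), Car8 at 11.1 (6.35 to 18.0) and Car13 at 5.55 (2.40 to 10.9). In MGJ2, Car2 was at 63.9 (55.3 to 73.5), Car8 at 4.54 (2.48 to 7.62), Car13 at 3.90 (2.01 to 6.80) and Car12 at 1.95 (0.715 to 4.24). In kept cells Car2 was at 10.3 in MGJ and 59.4 in MGJ2.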

How the results depend on the processing

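Of 310 values under 14 alternatives, 185 stayed within the counting interval of the main value. Another 109 left it without a counted change of direction, and 16 changed direction. A change of direction was counted only for ratios whose main interval excluded an equal level. Shares of cells with a UMI, compared at other thinning depths, have no direction. The alternatives without the Chil1-led cluster, without the cell of most UMIs and without the top doublet scores (1449 and 487 cells) were chosen after seeing the data. Where values moved, the cause was not tested.

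Car2 in osteoclast-like cells of MGJ (7.0) was 8.38 with at least 500 genes, 5.32 with each cell named by its highest marker score and 4.19 with cells weighted equally. In MGJ2 (1.79) it was 1.21 at 10% mitochondrial UMIs or less, 1.46 with cells weighted equally and 1.54 without the cell of most UMIs. Car2 in erythroid-like cells of MGJ (319) was 415 at 10% mitochondrial UMIs, 470.4 with 500 genes, 365 with doublet calls kept, 359.5 at resolution 2, 214 by marker score, 379 with each library clustered alone, 478 without the top doublet scores and 273 with cells weighted equally. In MGJ2 (15.5) it was 9.89 weighted equally and 10.9 without the cell of most UMIs.

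Car1 in erythroid-like cells of MGJ (8070) was 47.6, 89.1, 814, 1716, 919 and 44.4 under the first 6 of those settings, and 1065 weighted equally. In MGJ2 (1558) it was 484 without the cell of most UMIs. Settings that left under 20 erythroid-like cells in MGJ2 gave no value. Car9 in chondrocyte-like cells of MGJ (5.53) was 6.97 at 10% mitochondrial UMIs, 3.06 with doublet calls kept, 4.16 at resolution 2, 2.97 by marker score, 1.84 with each library alone, 11.6 weighted equally and 4.51 without the Chil1-led cluster. In MGJ2 (4.43) it was 9.06 by marker score and 9.31 weighted equally.

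Car12 in high over low Col10a1 of MGJ (1.17) was 2.19 at 10% mitochondrial UMIs, 2.21 with 500 genes and 1.07 without the top doublet scores, and below 1 with each library alone (0.992), with limits of 500 and 20000 (0.890) and without the Chil1-led cluster (0.964). In MGJ2 (0.276) it was 0.544 weighted equally and 0.183 without that cluster. Car3 in chondrocyte-like cells changed direction at 10% mitochondrial UMIs (0.184 in MGJ and 0.346 in MGJ2), with 500 genes (0.161 and 0.361), doublet calls kept (0.260 and 0.246), resolution 2 (0.220 and 0.232), marker scores (0.115 and 0), each library alone (0.149 in MGJ) and without the Chil1-led cluster (0.329 and 0.319).

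Within each library, the class of at least 50 cells with the highest level was the same in 9 of 9 settings for Car8 and Car12. It was chondrocyte-like for Car12 in both libraries and for Car8 in MGJ, and basophil or mast-like for Car8 in MGJ2. The 15 basophil or mast-like cells of MGJ, at 346 CPM of Car8, were too few for this order. For Car2 the leading class was the same in 8 settings in MGJ (erythroid-like) and 9 in MGJ2 (NK-like). For Car9 it was the same in 6 (chondrocyte-like) and 6 (osteoclast-like), and for Car13 in 5 (macrophage-like) and 3 (endothelial-like). For Car3 it was the same in 5 (pre-B-like, from 5 UMIs) and 4 (chondrocyte-like). For Car1 it was the same in 7 (erythroid-like) and 2 (mature neutrophil-like, 0.534 CPM from 3 UMIs). The 32 erythroid-like cells of MGJ2 were too few for this order. In MGJ, Car1 was otherwise highest in plasma-like or myeloid progenitor-like cells. No paired analysis was possible because the libraries have no group and no replicate number. Depth limits Car1, Car3 and Car9 most, with 46 to 855 UMIs in a library.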
